A study of Mus musculus with 2 samples.

Results

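Arg1-high macrophages were 483 cells of the library prepared 3 days after a tibial fracture, out of 18894 barcodes that passed the filters in the 2 libraries of the study. They were selected on measured values. A barcode was called a C1q macrophage when C1qa, C1qb and C1qc together made up at least 10 of every 10000 UMIs (unique molecular identifiers, counted mRNA molecules), EGFP made up under 3 and Acp5 under 5. A C1q macrophage was called Arg1-high when it held at least 2 Arg1 UMIs and at least 5 Arg1 UMIs per 10000. The comparison group was the 2643 C1q macrophages of the same library with 0 Arg1 UMIs and at least 3000 UMIs in all, called Arg1-zero below. Another 1009 C1q macrophages held some Arg1 but did not meet the rule, and 783 Arg1-zero cells were shallower than 3000 UMIs. These groups make up all 4918 C1q macrophages at day 3.

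Arginase 1, the product of Arg1, splits arginine into ornithine and urea. In macrophages it draws on the same arginine pool as inducible nitric oxide synthase, the product of Nos2, and the ornithine it releases can be turned into polyamines and proline. Arg1 is a widely used marker of wound-associated and interleukin 4-activated mouse macrophages, and its transcription is known to respond to STAT6, C/EBP-beta and hypoxia-inducible factors. C1q is the recognition component of the classical complement pathway and is made mainly by tissue macrophages. The periosteum is the cell sheath around bone from which much of the fracture callus is built.

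The study profiled the periosteum of Prx1Cre;mTmG mice. Their cells of the Prrx1 mesenchymal lineage carry membrane EGFP and all others membrane tdTomato. A library was made without injury and the other 3 days after the fracture, both with the same transgenes. Cells were obtained by explant culture, in medium with 20% fetal bovine serum and 10 ng/mL of basic fibroblast growth factor at 33°C, so their RNA was measured after a period in culture and not straight from the bone. The design text speaks of unexpanded cells, so the length of that culture is unclear, and the number of pooled mice is not stated. The source label calls the cells Prx1-derived, whereas macrophages are hematopoietic and were defined here by the near absence of EGFP.

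With 1 library per time point there were no replicates, and cells of 1 library are not replicates of a condition. Conditions could not be tested, and the 95% intervals given cover counting error only. The uninjured library held 4573 barcodes with a median of 19366 UMIs and the day-3 library 16332 with a median of 7030. Only 3 barcode sequences occurred in both. The libraries also differed in sex. Of the 1121 uninjured C1q macrophages, 666 held Y-linked UMIs without Xist and 1 held Xist without Y-linked UMIs. Of the Arg1-high cells, 316 held Xist alone, 72 Y-linked UMIs alone, 17 both and 78 neither, so the day-3 library came from mice of both sexes. Depth, sex, mice and run cannot be told apart from the injury in a comparison between libraries.

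Arg1 lies on chromosome 10 (chr10:24915221-24927484, minus strand, GENCODE M21 on GRCm38). Among the Arg1-high cells, the Arg1 level ran from 5.01 to 74.3 UMIs per 10000 with a median of 9.01, and the number of Arg1 UMIs from 2 to 72 with a median of 6. At the low end 55 cells held 2 Arg1 UMIs, 311 held 3 to 9, and 117 held 10 or more. Arg1 was a graded signal with no gap at the cut-off. There were 79 Arg1-high cells at 5 to under 6 per 10000, and 107 C1q macrophages just outside the rule at 4 to under 5 with 2 or more UMIs, the highest of them at 4.99. Another 36 cells reached 5 per 10000 on 1 UMI and were left out by the UMI minimum. Summed over cells, Arg1 made up 1117 of every 1000000 UMIs (CPM, the unit of all levels below) in Arg1-high cells (3700 UMIs) and 213.5 CPM in cells with some Arg1. It was 0 by definition in Arg1-zero cells. These levels follow from the rule and describe the groups.

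**Figure D1:**
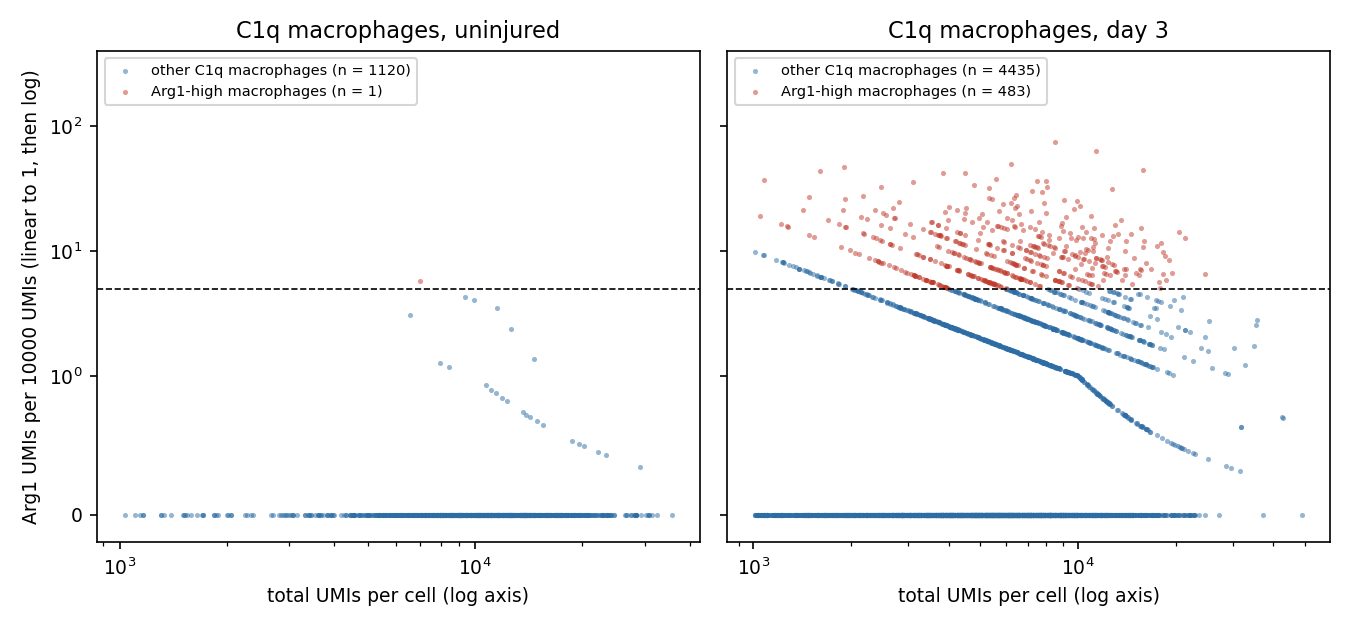
Arg1 level of every C1q macrophage, as UMIs per 10000 (y axis, linear to 1 and then logarithmic), against the total UMIs of the cell (x axis, logarithmic), in the uninjured (left) and day-3 (right) libraries. The dashed line is the cut-off of 5 per 10000. Red points are cells that meet the rule, 1 in the uninjured library and 483 at day 3, and the slanted bands are cells with the same whole number of Arg1 UMIs.

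Arg1-high cells were 9.82% of the C1q macrophages at day 3 (483 of 4918, exact Clopper-Pearson interval 9.0 to 10.7%). In the uninjured library 1 of 1121 C1q macrophages met the same rule (0.0892%, 0.00226 to 0.496%), with 5.73 Arg1 UMIs per 10000. Any Arg1 UMI was found in 30.3% of day-3 and 2.23% of uninjured C1q macrophages. When every cell was thinned to 3000 UMIs, which left out 923 and 38 shallower cells, 437 of 3995 day-3 cells (10.9%) and 0 of 1083 uninjured cells met the rule. A count of 0 allows a share of up to 0.277%, taking 3 cells as the limit, and the exact interval for it ends at 0.340%. Among cells with Y-linked UMIs alone, which both libraries held in number, the shares were 72 of 530 (13.6%) at day 3 and 1 of 666 (0.150%) without injury. In day-3 cells with Xist alone the share was 316 of 3301 (9.57%).

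Free RNA in the droplets can give Arg1 UMIs to cells that do not make it. The EGFP-positive lineage cells of the same library served as a rough guide to this background. They held Arg1 at 7.5 CPM, and 29 of 4523 met the Arg1 part of the rule (0.641%). After thinning to 3000 UMIs, 28 of 4158 lineage cells did so (0.673%), against 10.9% of C1q macrophages. The median depth before thinning was 31958 UMIs in those lineage cells and 6567 in the macrophages. Thinning evens the depth but not the share of free RNA in a cell, which can be smaller in deeper cells. The background in the macrophages themselves was therefore not measured.

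The label was checked against macrophage markers. Csf1r, the receptor for macrophage colony-stimulating factor, stood at 490 CPM in Arg1-high and 543 CPM in Arg1-zero cells. Adgre1, which encodes F4/80, stood at 255 and 246 CPM, and Cd68 at 322 and 297 CPM. Aif1, a cytoskeletal gene of macrophages, was lower at 95.1 against 137 CPM (0.696, 0.617 to 0.783). Of the rule's own genes, C1qa stood at 1051 and 1016 CPM, C1qb at 1063 and 1173 CPM, and C1qc at 746 and 827 CPM. Arg1-high cells had a median of 5928 UMIs and 2375 detected genes, close to the 6164 and 2493 of Arg1-zero cells, and a median of 4.38% mitochondrial UMIs against 4.32%. Of the Arg1-high cells, 58 were under the 3000 UMIs required of the comparison group.

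Marker lists of other cell types were close between the groups for some types and differed for others. The 9 mesenchymal markers summed to 97.5 CPM in Arg1-high and 101 CPM in Arg1-zero cells, against 3664 CPM in lineage cells. Several lists at low levels had lower sums in Arg1-high than in Arg1-zero cells, but on few UMIs and without an interval. The 7 T and NK cell markers summed to 0.604 and 1.54 CPM, with 6 at 0 and Trbc2 at 2 UMIs in Arg1-high cells. The 5 B cell markers summed to 5.13 and 12.4 CPM, and the 6 dendritic cell markers to 0.604 and 4.51 CPM, with 5 of the 6 at 0 in Arg1-high cells. The dendritic marker left, Clec9a, held 2 UMIs there, and the Arg1-zero sum came mostly from Ccr7 (68 UMIs). The 11 neutrophil markers summed to 1497 and 1619 CPM, against 34.5 CPM in uninjured C1q macrophages. In both day-3 groups this sum came mostly from S100a8 (529 and 635 CPM), S100a9 (382 and 489 CPM) and Mmp8 (378 and 236 CPM), while Ly6g was at 0 in Arg1-high cells. Camp, a neutrophil granule gene, was the other marker higher in them past 1.5-fold, at 49.2 against 20.3 CPM. The 6 osteoclast markers summed to 372 and 150 CPM, which was mostly Mmp9, since Calcr was at 0 and Ctsk, the main collagen-degrading protease of osteoclasts, stood at 40.2 and 34.5 CPM. Whether these UMIs were carried over from other cells was not tested. Some genes below are given with their level in neutrophil-like barcodes or in lineage cells.

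Apart from Arg1 itself the Arg1-high cells resembled their Arg1-zero neighbours. Among the 3573 genes that reached 50 CPM in either group, 3452 (96.6%) differed by less than 1.5-fold. Of these 3573 genes, 18 had a level in Arg1-high cells at least 2 times that of Arg1-zero cells (0.504%), and 16 were lower by as much (0.448%). At a minimum of 10 CPM, 152 of 8256 genes were 1.5-fold higher or more (1.84%) and 320 were 1.5-fold lower or more (3.88%), with a median log2 ratio of -0.0525. The genes used by the rule are left out of these counts. The 18 higher genes were Cxcl3, Mmp9, Pdpn, Cav1, Fn1, Il1rn, Thbs1, Vegfa, Hilpda, Mmp12, Mmp13, Sox4, Slc7a11, Gpc1, Abca1, Cxcl2, Ccl6 and Ppbp. The 16 lower genes were H2-Aa, Cd74, H2-Ab1, Ly6c2, Fcrls, Ifitm1, Ccr2, Lcn2, Chil3, Slc40a1, Gas6, Racgap1, Ccna2, Spc25, Ednrb and Kif23. In each of the 34 the counting interval of the ratio lay wholly on its side of 1. The cut-offs of 2-fold and 50 CPM made this nearly certain at the UMI totals of these groups. The intervals leave out the spread between cells.

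**Figure D2:**
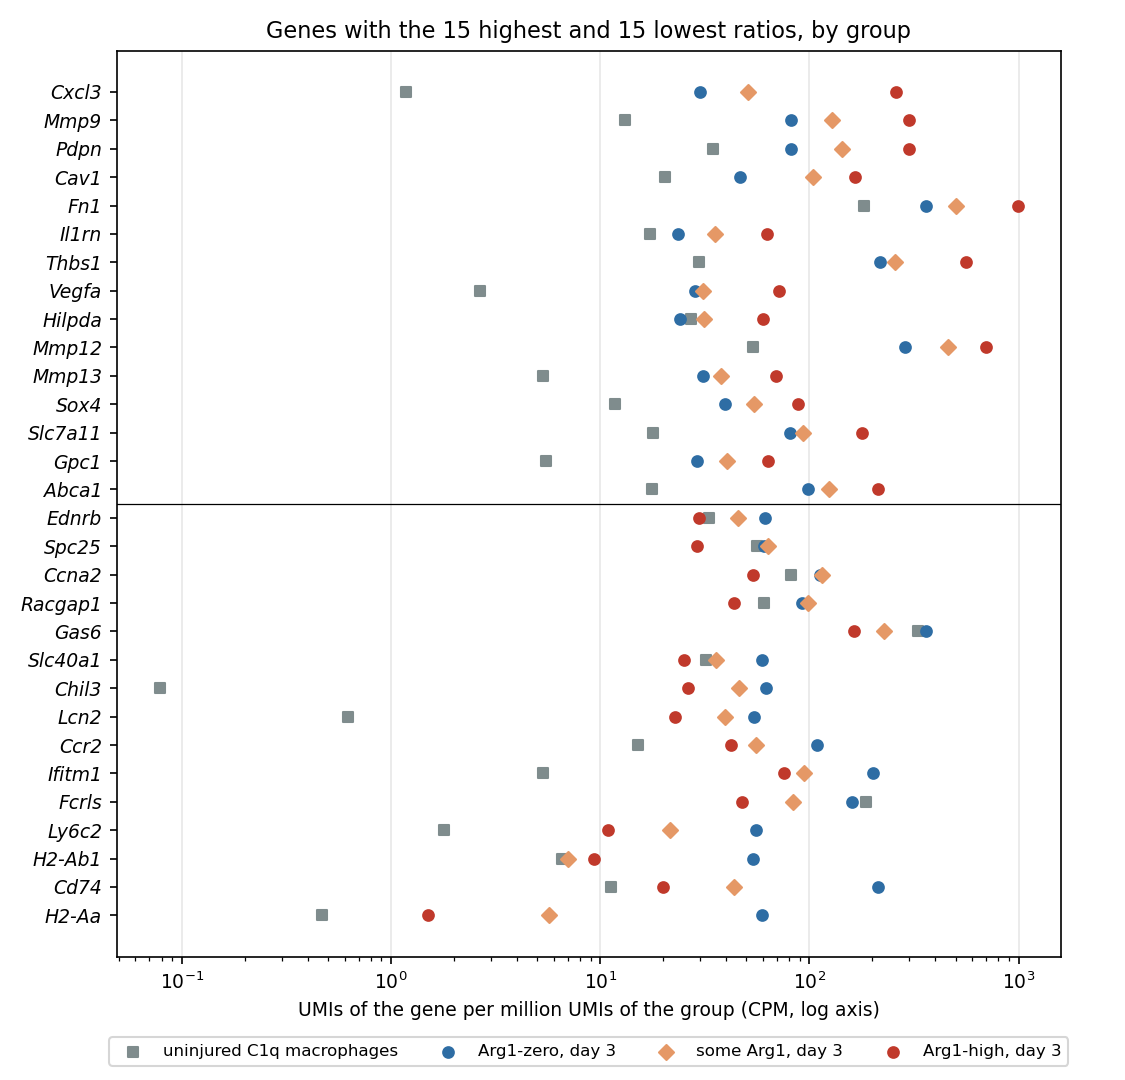
Level of the genes with the 15 highest and the 15 lowest ratios (x axis, CPM of the summed UMIs of the group, logarithmic) in 4 groups of C1q macrophages. For all 15 upper genes the red points (Arg1-high) lie to the right of the blue (Arg1-zero), with the cells of some Arg1 (orange) in between, and the uninjured cells (grey) lie left of the blue points for all but Hilpda.

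Wound matrix, growth factor and protease genes held 6 of the 18 genes just named as higher. Of 26 measured genes of this list, 10 were at least 1.5-fold higher in Arg1-high cells (against 1.84% of all genes) and 2 lower (against 3.88%), and the median log2 ratio was 0.34. Fn1, which encodes the matrix glycoprotein fibronectin, stood at 995 CPM against 361 CPM in Arg1-zero cells (ratio 2.76, 2.65 to 2.88), at 499 CPM in cells with some Arg1 and at 182 CPM in uninjured C1q macrophages. Fn1 UMIs were found in 410 of the 483 Arg1-high cells, up to 64 in a cell, so the difference did not rest on a few cells. Lineage cells of the same library held Fn1 at 1564 CPM. Thbs1, which encodes the matricellular protein thrombospondin 1, stood at 561 against 218 CPM (2.58, 2.44 to 2.72) and at 29.7 CPM without injury.

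The proteases included 5 matrix metalloproteinases. Mmp9, a gelatinase, stood at 300 CPM in Arg1-high and 82.0 CPM in Arg1-zero cells (3.67, 3.38 to 3.97), and at 13.1 CPM in uninjured C1q macrophages. Neutrophil-like barcodes of the same library held Mmp9 at 286 CPM. Of the neutrophil markers S100a8 was lower in Arg1-high cells and Camp and Mmp8 were higher, and the part of neutrophil RNA in the Mmp9 difference was not tested. Mmp12, the macrophage elastase, stood at 699 against 287 CPM (2.44, 2.32 to 2.56), with up to 145 UMIs in a single Arg1-high cell. Mmp13, a collagenase, stood at 69.5 against 31.1 CPM (2.23, 1.91 to 2.60). The membrane-bound Mmp14 stood at 208 against 130 CPM (1.61, 1.47 to 1.75), and Mmp8 at 378 against 236 CPM (1.60, 1.5 to 1.71). Mmp8 is also a neutrophil gene, at 245 CPM in neutrophil-like barcodes.

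Of the growth factor genes Vegfa had the highest ratio. Vegfa, the main angiogenic factor, stood at 71.6 against 28.5 CPM (2.51, 2.15 to 2.93), and at 2.66 CPM in uninjured cells. Pdgfa stood at 164 against 108 CPM (1.52, 1.38 to 1.67). Igf1 was slightly lower at 304 against 354 CPM (0.860, 0.804 to 0.919). Spp1, which encodes osteopontin, stood at 6094 against 4110 CPM (1.48, 1.46 to 1.51). The 2 lower members were Gdf15 and Inhba, at 8.45 against 15 CPM and 7.55 against 11.6 CPM. In male cells their ratios were 1.40 (0.454 to 3.67) and 2.26 (0.762 to 6.08).

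Pdpn, Cav1 and Gpc1, whose products sit in the plasma membrane, were also among the leading genes. Pdpn, which encodes podoplanin, stood at 300 against 82.0 CPM (3.66, 3.37 to 3.96). Pdpn was found in 51.8% of Arg1-high and 18.5% of Arg1-zero cells thinned to 3000 UMIs, the widest gap in share of cells among the 15 genes with the highest ratios. Cav1, which encodes the caveolar protein caveolin 1, stood at 164 against 46.6 CPM (3.52, 3.16 to 3.93), and Gpc1, a heparan sulfate proteoglycan, at 63.4 against 28.9 CPM (2.19, 1.86 to 2.58). Lineage cells held Pdpn at 327, Cav1 at 53.8 and Gpc1 at 90.7 CPM, and the part of their RNA in these differences was not tested.

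Cxcl3, which encodes a neutrophil-attracting CXC chemokine, had the highest ratio of all genes counted. It stood at 258 CPM in Arg1-high cells, 50.8 CPM in cells with some Arg1, 30.0 CPM in Arg1-zero cells and 1.17 CPM in uninjured C1q macrophages. The ratio was 8.62 (7.74 to 9.60), and 5.49 (4.12 to 7.34) in male cells alone. Cxcl3 was confined to a minority of the Arg1-high cells. It was found in 118 of 483, with up to 57 UMIs in a cell, and the 5 highest cells held 26.4% of its UMIs. Without those cells its level in the Arg1-high group was 190 CPM. In neutrophil-like barcodes Cxcl3 was at 14.6 CPM.

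Of 16 measured chemokines and chemokine receptors 5 were at least 1.5-fold higher (Cxcl3, Cxcl2, Ccl6, Cxcr4 and Pf4) and 2 lower (Ccr2 and Ccl3), against 1.84% and 3.88% of all genes. Cxcl2, another ligand of the neutrophil receptor CXCR2, stood at 120 against 57.9 CPM (2.08, 1.85 to 2.33). Ccl6 stood at 794 against 384 CPM (2.07, 1.98 to 2.16) and Pf4 at 8074 against 5043 CPM (1.60, 1.58 to 1.62). Ppbp, known like Pf4 from platelets and outside the list, stood at 172 against 84.2 CPM (2.04, 1.85 to 2.25). Pf4, Cxcl3 and Cxcl2 lie close together on mouse chromosome 5, between chr5:90772435 and chr5:90905938 on GRCm38. Ccl3 was lower at 32.3 against 56.1 CPM (0.575, 0.467 to 0.703).

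Glycolysis and hypoxia genes leaned to the higher side. Of 27 measured, 6 were at least 1.5-fold higher (1.84% of all genes), 0 were at least 1.5-fold lower (3.88% of all genes), and the median log2 ratio was 0.28. Ddit4, an inhibitor of mTOR signalling induced by low oxygen, had the highest ratio of the list at 15.4 against 4.61 CPM (3.34, 2.32 to 4.77). Next to Vegfa came Egln3, an oxygen-sensing prolyl hydroxylase, at 18.1 against 8.27 CPM (2.19, 1.60 to 2.97), and Bnip3, a mitophagy receptor, at 115 against 60.8 CPM (1.89, 1.68 to 2.12). Ankrd37 (1.56, 1.04 to 2.28) and Slc16a3, the lactate exporter (1.53, 1.37 to 1.71), were nearer the cut-off. Ddit4 and Egln3 were under 10 CPM in Arg1-zero cells, so they counted as measured only through the Arg1-high group. In male cells, the ratios of Egln3 and Ankrd37 were 1.16 and 1.05, with intervals of 0.338 to 3.25 and 0.255 to 3.25. The glycolytic enzymes differed little, with Ldha at 727 against 571 CPM (1.27, 1.22 to 1.33) and Pgk1 at 965 against 853 CPM (1.13, 1.09 to 1.18). Hif1a, the oxygen-regulated transcription factor subunit, stood at 417 against 294 CPM (1.42, 1.34 to 1.5) and at 71.2 CPM without injury. Oxygen was not measured.

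Promoters were read for the leading genes from RefSeq (GRCm38.p6), as 250 bases before and 50 after a gene's start, on the strand of the gene. The motif ACGTG is the core of the hypoxia response element. It was searched on both strands, and where it stands as CACGTG it matches on both and is also an E-box. It was present in 19.6% of all 32841 promoters, and in at least 1 promoter of 21.8% of 27018 genes. It was present for 6 of the 6 hypoxia-list genes that were at least 1.5-fold higher, and for 13 of the 19 other measured genes of the list with a promoter in the table. A gene was counted when at least 1 of its promoters held the motif. The 6 genes had 7 promoters, 6 of them with the motif. Vegfa held it only in the promoter of its downstream start, read from chr17:46025164-46025413. The promoter of its upstream start, read from chr17:46032378-46032627, held none. The list was chosen for hypoxia, so this is a description of its promoters. Of the 15 genes with the highest ratios 11 had a promoter in the table, and 6 of them held ACGTG (Cxcl3, Pdpn, Cav1, Vegfa, Hilpda and Abca1). Cav1, Vegfa and Hilpda each also had a promoter without it. Of the 15 lowest genes 11 had a promoter in the table, and none of these held the motif. The 11 higher genes had 17 promoters, 6 of them with the motif, and the 11 lower genes had 12 promoters. A match is a stretch of letters and shows no binding. The 250 bases before the start are shown for Cxcl3 (chr5:90785851-90786100, plus strand), the gene with the highest ratio, and for Bnip3 (chr7:138909507-138909756, minus strand) and Slc16a3 (chr11:120948817-120949066, plus strand) as members of the hypoxia list. Capitals mark the motif.
Cxcl3: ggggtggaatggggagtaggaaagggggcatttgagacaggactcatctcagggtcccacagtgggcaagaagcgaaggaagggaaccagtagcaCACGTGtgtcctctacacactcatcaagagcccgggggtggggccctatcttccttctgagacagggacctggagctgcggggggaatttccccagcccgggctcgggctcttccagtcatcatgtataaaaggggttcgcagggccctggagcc
Bnip3: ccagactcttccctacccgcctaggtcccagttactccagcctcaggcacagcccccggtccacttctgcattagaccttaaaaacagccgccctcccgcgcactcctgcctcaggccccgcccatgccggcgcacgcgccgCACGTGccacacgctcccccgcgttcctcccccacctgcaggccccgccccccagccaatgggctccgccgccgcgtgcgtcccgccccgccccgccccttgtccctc
Slc16a3: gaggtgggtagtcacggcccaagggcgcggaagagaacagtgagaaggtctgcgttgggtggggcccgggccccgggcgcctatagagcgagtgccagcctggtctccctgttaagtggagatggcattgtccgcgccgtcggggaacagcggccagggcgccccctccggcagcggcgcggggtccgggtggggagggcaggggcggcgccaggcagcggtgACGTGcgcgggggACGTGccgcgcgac

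The AP-1 motif TGANTCA was searched in the same way. It was present in 7.81% of all promoters and 8.98% of genes, and for 4 of the 11 genes with the highest ratios that had a promoter in the table (Hilpda, Il1rn, Mmp12 and Mmp13), against 0 of the 11 with the lowest. The C/EBP motif TTGCNNAA was present for 2 of the 11 higher and 1 of the 11 lower genes, against 12.2% of genes, and the STAT palindrome for 1 and 1, against 8.01%. Arg1, Fn1, Thbs1, Mmp9 and Gpc1 are named only. The upstream sequences of 2 metalloproteinases with an AP-1 match are shown, Mmp13 (chr9:7272264-7272513, plus strand) and the downstream start of Mmp12 (chr9:7347124-7347373, plus strand), with the match in capitals. In Mmp13 it begins 35 bases before the start and in Mmp12 it begins 44 bases before it. The promoter of the upstream start of Mmp12 held no AP-1 match, and Il1rn also had promoters without it.
Mmp13: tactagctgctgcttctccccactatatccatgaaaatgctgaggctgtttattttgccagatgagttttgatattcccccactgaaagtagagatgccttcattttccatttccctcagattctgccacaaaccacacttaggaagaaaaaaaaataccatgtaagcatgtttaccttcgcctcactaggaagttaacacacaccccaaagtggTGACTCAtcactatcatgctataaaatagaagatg
Mmp12: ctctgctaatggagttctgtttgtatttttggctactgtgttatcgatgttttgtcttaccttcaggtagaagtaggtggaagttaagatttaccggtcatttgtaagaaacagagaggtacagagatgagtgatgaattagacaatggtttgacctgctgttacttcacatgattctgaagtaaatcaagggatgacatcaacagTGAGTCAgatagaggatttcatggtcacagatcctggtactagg

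Lipid handling genes also leaned higher, with 5 of 18 measured at least 1.5-fold higher (1.84% of all genes), 0 lower (3.88%) and a median log2 ratio of 0.32. Abca1, the cholesterol exporter, stood at 213 against 98.6 CPM (2.17, 1.98 to 2.36) and was found in 288 of 483 Arg1-high cells. Hilpda, a lipid droplet protein that inhibits lipolysis, stood at 59.8 against 24.0 CPM (2.49, 2.10 to 2.95), but at a ratio of 1.28 (0.725 to 2.18) in male cells. The fatty acid binding protein gene Fabp5 stood at 1000 against 540 CPM (1.85, 1.78 to 1.92) and the scavenger receptor gene Cd36 at 942 against 572 CPM (1.65, 1.58 to 1.71). Fabp4 had a ratio of 2.5 (1.88 to 3.30) on 76 UMIs, which was 0.997 in male cells (0.294 to 2.72). Lpl, the lipoprotein lipase gene, went the other way at 412 against 540 CPM (0.764, 0.721 to 0.808), and Trem2 was level at 502 and 490 CPM.

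Most other measured genes of arginine metabolism differed by less than 1.5-fold. Of 16 measured genes of the arginine, urea cycle and polyamine list, 1 was 1.5-fold higher, 1 was 1.5-fold lower and 14 were neither. Of all genes 1.84% were higher and 3.88% lower by as much. The median log2 ratio of the list was -0.12. The higher gene was Ass1, which makes the precursor of arginine from citrulline, at 22.3 against 13.5 CPM (1.65, 1.26 to 2.15). The lower was Gatm, which uses arginine in creatine synthesis, at 22.6 against 49.8 CPM (0.455, 0.355 to 0.576). Odc1, the ornithine decarboxylase that starts polyamine synthesis, was level at 49.5 and 53.7 CPM (0.922, 0.777 to 1.09). Arg2, the mitochondrial arginase, had a ratio of 3.15 (1.87 to 5.19) on 26 UMIs in Arg1-high cells, 7.85 against 2.49 CPM, and of 1.44 after thinning to 3000 UMIs. Both levels were under the minimum of 10 CPM, so Arg2 is not among the measured genes. Nos2 had 0 UMIs in each group shown here.

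Markers usually named beside Arg1 for alternative activation went both ways. Retnla had 0 UMIs in each group, and Mrc1, the mannose receptor gene, was lower at 358 against 486 CPM (0.736, 0.692 to 0.782). Chil3 was lower at 26.3 against 62.2 CPM (0.422, 0.336 to 0.526). However, 79.3% of its UMIs in Arg1-high cells came from 5 cells, and the ratio was 0.898 when cells with UMIs of monocyte or myeloid precursor markers were left out, a check added after the values were seen. Of the 6 measured genes of the alternative activation list, 1 was past 1.5-fold higher (Klf4, at 1.52, and 0.977 in male cells) and 1 lower (Chil3), with a median log2 ratio of 0.125. The shares of all genes past 1.5-fold were 1.84% higher and 3.88% lower. Tgm2, a transglutaminase gene, stood at 69.1 against 53.2 CPM (1.30, 1.12 to 1.5), and Msr1, a scavenger receptor gene, at 666 against 534 CPM (1.25, 1.19 to 1.31). Of 6 measured classical activation genes, only Il1b was at least 1.5-fold higher (2.54, 1.67 to 3.78), and 97.3% of its 37 UMIs came from 5 cells. Il1rn, which encodes the interleukin 1 receptor antagonist, stood at 62.8 against 23.6 CPM (2.66, 2.25 to 3.15). Its 5 highest cells held 33.2% of the UMIs, and in male cells the ratio was 1.29 (0.704 to 2.26).

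Factors and receptors linked to Arg1 control differed modestly. Of 20 measured, 2 were at least 1.5-fold higher (Epas1 at 1.60 and Klf4 at 1.52) and 0 lower, against 1.84% and 3.88% of all genes. Cebpb, which encodes C/EBP-beta, stood at 829 CPM in Arg1-high cells and 604 CPM both in Arg1-zero cells and in cells with some Arg1, against 25.7 CPM without injury (ratio 1.37, 1.32 to 1.43). The log2 ratio was 0.0665 for Stat6 and -0.0677 for Il4ra, the receptor for interleukins 4 and 13. Of the 12 measured integrated stress response genes, Slc7a11 was at least 1.5-fold higher and Phgdh at least 1.5-fold lower. Slc7a11, the cystine transporter, stood at 179 against 81.1 CPM (2.20, 2.00 to 2.42).

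Genes of MHC class II antigen presentation were the lowest in Arg1-high cells. All but 1 of the 6 measured genes of this list were at least 1.5-fold lower (against 3.88% of all genes), with a median log2 ratio of -2.97. H2-Aa had 5 UMIs in Arg1-high and 1115 in Arg1-zero cells, 1.51 against 59.1 CPM (ratio 0.0255, 0.00828 to 0.0598). Cd74, the invariant chain, stood at 19.9 against 213 CPM, and H2-Ab1 at 9.36 against 53.9 CPM. These UMIs came from few Arg1-zero cells. Only 77 of 2643 held any H2-Aa, and the 5 highest held 38.5% of its UMIs. Cells with at least 3 UMIs of H2-Aa, H2-Ab1 and H2-Eb1 were 55 of 2643 Arg1-zero (2.08%) and 4 of 483 Arg1-high cells (0.828%). Without them, a check added after the values were seen, the list median was -0.63, the ratio of Cd74 was 0.583 and that of H2-Ab1 was 1.67. In uninjured C1q macrophages, H2-Aa stood at 0.469 and Cd74 at 11.3 CPM, both below the Arg1-high level.

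Monocyte genes were mixed, with 4 of 11 measured at least 1.5-fold lower (Ly6c2, Plac8, Hp and Ccr2) and 1 higher (Vcan), against 3.88% and 1.84% of all genes. Ly6c2, a surface antigen of inflammatory monocytes, stood at 10.9 against 55.7 CPM (0.195, 0.136 to 0.272), and at a ratio of 0.319 after thinning. Ccr2, the receptor that draws monocytes into tissue, stood at 42.0 against 108 CPM (0.387, 0.323 to 0.460). At 3000 UMIs per cell, 10.4% of Arg1-high cells (7.62 to 13.6%) and 16.6% of Arg1-zero cells (15.2 to 18%) held a UMI of Ccr2 or Ly6c2. The share in cells with some Arg1 was 10.5%, within the interval of Arg1-high cells. The 5 myeloid precursor markers summed to 11.8 CPM in Arg1-high and 72.2 CPM in Arg1-zero cells. Lcn2, a neutrophil granule gene at 4280 CPM in neutrophil-like barcodes, was lower at 22.6 against 54.3 CPM (0.417, 0.325 to 0.528), with 86.7% of the Arg1-high UMIs in 5 cells.

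Some genes of resident macrophages were lower and most differed little. Of 10 measured, 2 were at least 1.5-fold lower (Ltc4s and Gas6), 1 higher (Pf4) and 7 neither, with a median log2 ratio of -0.27. By the same cut-off 3.88% of all genes were lower and 1.84% higher. Gas6, a bridging ligand for the clearance of dead cells, stood at 163 against 361 CPM (0.451, 0.412 to 0.492), and at 329 CPM in uninjured cells. Fcrls, a gene known from microglia and tissue macrophages, stood at 47.4 against 160 CPM (0.295, 0.250 to 0.347) and at 186 CPM without injury. Both genes were spread over many cells. Gas6 was found in 246 Arg1-high and 1882 Arg1-zero cells, and Fcrls in 97 and 1314. Slc40a1, the iron exporter ferroportin, stood at 25.1 against 59.2 CPM (0.423, 0.334 to 0.529). F13a1 was slightly lower at a ratio of 0.803 (0.752 to 0.858), and Stab1 was level at 1.01 (0.953 to 1.06). At 3000 UMIs, 80.2% of Arg1-high and 80.6% of Arg1-zero cells held a UMI of either gene.

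Mitotic genes were lower as a set, with all 15 measured at least 1.5-fold lower (against 3.88% of all genes) and a median log2 ratio of -0.88. Top2a stood at 126 against 243 CPM (0.519, 0.468 to 0.574) and Mki67 at 105 against 193 CPM (0.542, 0.484 to 0.605). At 3000 UMIs per cell, 16.7% of Arg1-high cells (71 of 425, 13.3 to 20.6%) held 3 or more UMIs of the 15 genes, against 30.0% of Arg1-zero cells (28.3 to 31.8%), 34.8% of cells with some Arg1 and 38.1% of uninjured C1q macrophages. Unthinned, the shares were 22.8%, 40.1%, 46.0% and 63.7%. The cells with some Arg1 thus lay on the other side of the Arg1-zero cells from the Arg1-high cells. Their median depth before thinning was 7579 UMIs, against 5928 in Arg1-high and 6164 in Arg1-zero cells. The part of depth in this order was not tested. When cells with 3 or more mitotic UMIs were left out of both groups, the list median was 0.0106. The cell cycle genes Ccna2, Racgap1, Spc25 and Kif23 among the 16 lower genes had ratios of 0.473 to 0.486, and without those cells Ccna2 was at 0.421, Spc25 at 0.593 and Racgap1 at 0.782.

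**Figure D3:**
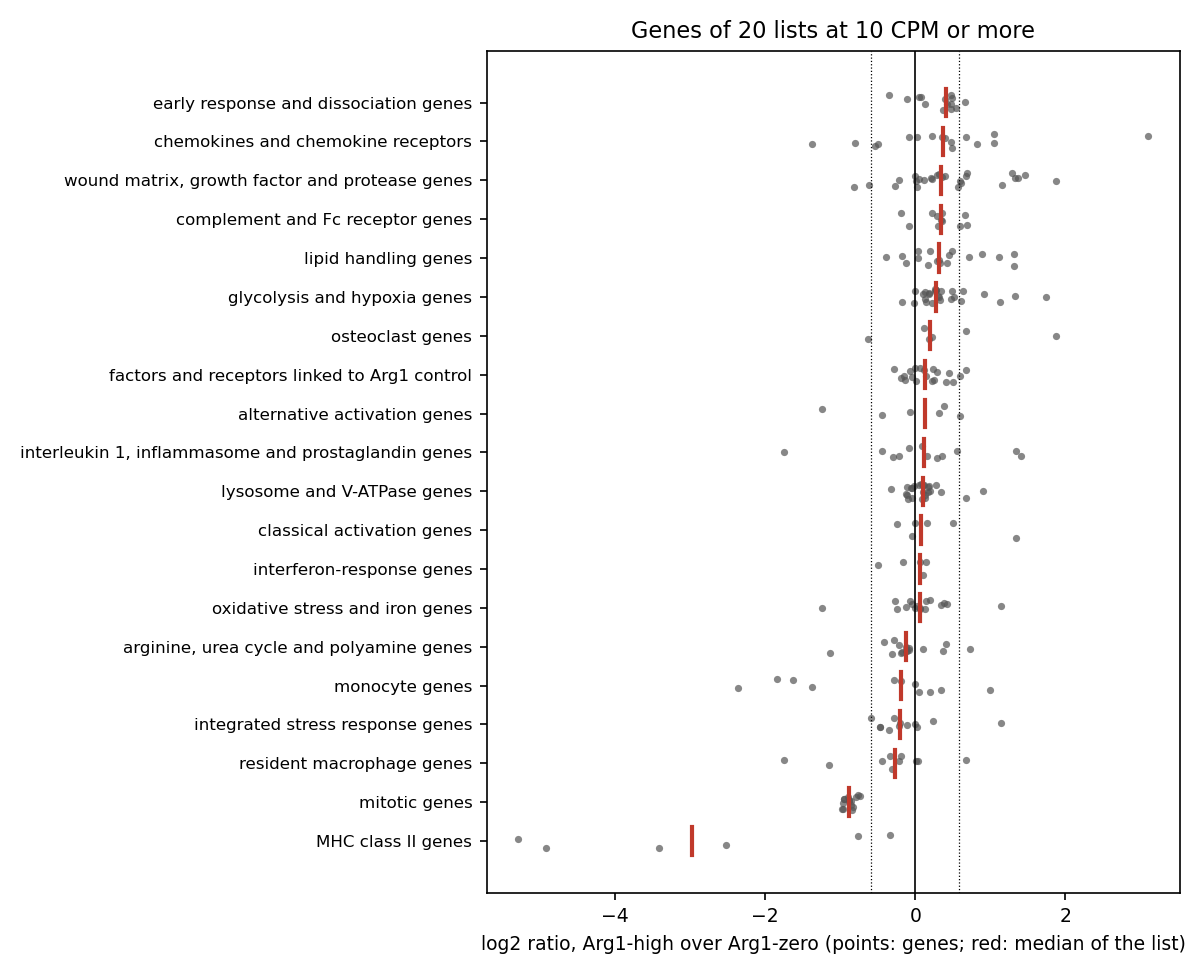
Log2 ratio of Arg1-high to Arg1-zero macrophages (x axis) for each measured gene (grey points) of 20 lists, with the median of each list as a red bar and dotted lines at 1.5-fold. The lists run from early response and dissociation genes at the top (median 0.41) to mitotic genes (-0.88) and MHC class II genes (-2.97) at the bottom. All genes had a median of -0.0525.

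The library held cells of both sexes, and so of more than 1 mouse, which gave a comparison within the library. The ratio lay on the same side of 1 in female and in male cells for all 18 higher and all 16 lower genes. These genes were picked for their ratio over the same cells, most of which held Xist alone. Their side in female cells was thus largely given by that choice, and the male cells were also part of it. It was at least 2-fold in both sexes for 12 of the 18 and 8 of the 16. Fn1 had ratios of 2.84 (2.70 to 2.99) in female and 3.05 (2.70 to 3.45) in male cells, and Cav1 of 3.46 and 3.79. Mmp12 had 2.90 (2.73 to 3.07) and 2.26 (1.97 to 2.58), and Pf4 1.42 and 2.16. The mitotic list median was -0.67 in female and -2.35 in male cells, with 288 male Arg1-zero and 72 male Arg1-high cells behind the latter. Whether the sexes differ could not be tested, since the labels do not tie cells to mice.

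**Figure D4:**
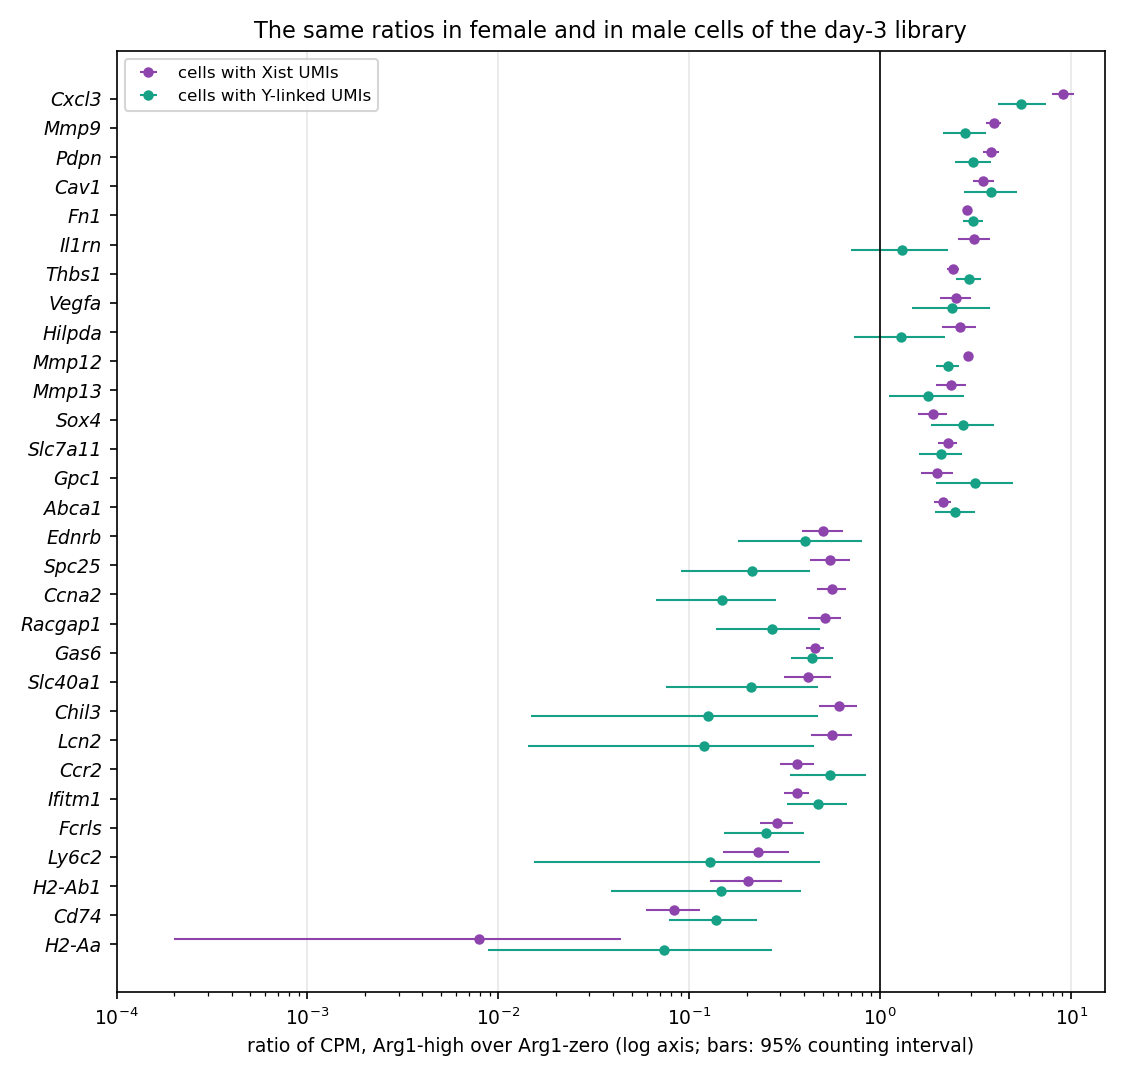
Ratio of Arg1-high to Arg1-zero CPM (x axis, logarithmic) of the same 30 genes in cells with Xist alone (purple) and in cells with Y-linked UMIs alone (green), with 95% counting intervals. All points of the upper 15 genes lie right of 1 and those of the lower 15 left of it, and the male intervals of Il1rn and Hilpda include 1.

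Arg1-high cells with at least 3000 UMIs were divided into 4 bins by Arg1 level, of 107, 106, 106 and 106 cells with medians of 5.74, 7.43, 10.3 and 16.6 per 10000. Some leading genes were higher in each bin than in the one before. Thbs1 stood at 311, 356, 582 and 890 CPM in the 4 bins, Vegfa at 39.7, 53.8, 66.2 and 108 CPM, and Mmp9 at 206, 220, 337 and 431 CPM. Cxcl3 was highest in bin 4 but lowest in bin 2, at 147, 105, 241 and 557 CPM. Mmp12 did not follow the order, at 817, 443, 593 and 959 CPM, nor did Sox4, at 79.4, 88.6, 67.3 and 89.2 CPM. Cav1 stood at 112, 192, 169 and 192 CPM. Gas6 stood at 186, 193, 121 and 110 CPM. The median depth of the bins was 5533, 6914.5, 7359.5 and 6235 UMIs, so the order of Arg1 was not the order of depth.

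**Figure D5:**
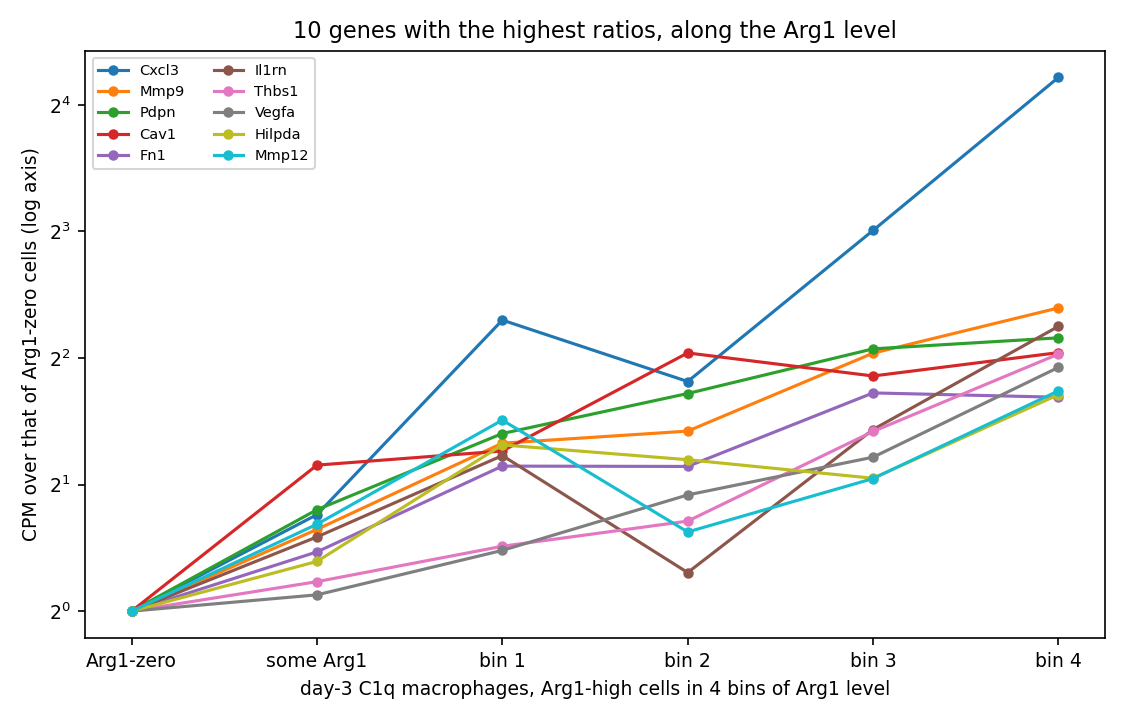
Level of the 10 genes with the highest ratios relative to Arg1-zero cells (y axis, logarithmic), in Arg1-zero cells, cells with some Arg1 and the 4 bins of Arg1-high cells by Arg1 level (x axis). Each of the 10 lines ends above its value in cells with some Arg1, Cxcl3 highest with 557 CPM in bin 4, and Il1rn dips to 29.1 CPM in bin 2.

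The genes whose level was most like that of Arg1 over these 6 points (Arg1-zero, some Arg1 and the 4 bins) were found by Pearson correlation of log2 CPM, with 1 CPM added. All points come from 1 library, so no p is given. The 10 most alike were Pdgfa (r = 0.993), Sdc3, Lgals3, Itgb1, Zbtb20, Cav1, Dusp1, Sirpb1c, Sh3bgrl2 and Slc44a1 (r = 0.937). Arg1 is set to 0 in the first point, so a gene scores high when it is low in Arg1-zero cells and nearly level elsewhere. Pdgfa stood at 108 CPM in Arg1-zero cells, 152 CPM in cells with some Arg1 and 169, 161, 168 and 173 CPM in the bins. Lgals3, which encodes the lectin galectin 3, stood at 1779 CPM, 2274 CPM and then 2300, 2510, 2521 and 2842 CPM.

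At the level of single cells the leading genes did not mark all Arg1-high cells alike. In cells thinned to 3000 UMIs, the median number of the 10 leading genes with a UMI was 3 in Arg1-high and 1 in Arg1-zero cells. At least 3 of the 10 were found in 65.9% and 23.6%, and none in 2.82% and 19.6%. The 10 genes were picked for their ratio between these same cells, so these shares only describe how they were spread. Fn1 was found in 75.3% of Arg1-high cells, Thbs1 in 47.8%, Mmp12 in 39.8%, Mmp9 in 31.5% and Cxcl3 in 20.9%, against 47.2%, 30.1%, 21.3%, 16.6% and 3.90% of Arg1-zero cells. Among the 425 Arg1-high cells of this depth, Mmp9 was found in 51.7% of those with Cxcl3 and 26.2% of those without. Il1rn was found in 20.1% of those with Mmp9 and 4.81% of the others. Fn1 was found in 70.6% of those with Cav1 and 77.1% of the others. Cxcl3, Mmp9 and Il1rn thus overlapped in the same cells more often than if they were spread independently, and Fn1 and Cav1 did not. Fn1 was found in most cells, which leaves little room for such an excess. Other pairs of the leading genes lay on both sides of the independent number.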

How the data were processed

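The files hold UMI counts per gene and barcode, deposited by the authors without normalization. Libraries were made with the Chromium Single Cell 3' kit v.2 per the labels' protocols, the matrices carry software version 3.1.0 per the file headers, and the submitters' processing notes name Cell Ranger, Seurat 4.0.1 and the mm10 build. Both matrices have 31055 features, and no per-sample column was left unused.

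Barcodes with at least 500 genes, at least 1000 UMIs and at most 10% mitochondrial UMIs were kept. For each group of cells UMIs were summed, divided by the group total (CPM) and compared as ratios with exact conditional binomial 95% intervals. Shares have exact Clopper-Pearson intervals. A gene was measured at 10 CPM or more in the higher group, so a gene under 10 CPM in 1 group could count through the other. Depth-matched shares used cells thinned to 3000 UMIs. On simulated data the ratio and thinning steps were tested. Scrublet's own threshold marked 0 day-3 barcodes and so did not work. Doublets were therefore left in, and 1673 barcodes with the highest scores were removed in an alternative. The cells, gene lists and alternatives were chosen with earlier results of these data known. Named genes were the 15 highest and 15 lowest ratios at 50 CPM or more (rule genes, unnamed gene models, mitochondrial, ribosomal and globin genes left out), the 2 highest and 2 lowest of each of 20 lists, 21 genes set whatever their values, and the 10 most like Arg1. Other list members past 1.5-fold, and the other 2-fold genes, were named after their values were seen. The alternatives were other depth, weighting, scaling (TMM, edgeR 4.0.16), doublet, cell cycle, sex, cut-off and low-level choices, and 3 added after seeing the data. Python 3.11.15, scipy 1.17.1 and scanpy 1.11.5 were used.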

Additional observations from a re-analysis of the deposited data

How the results depend on the processing

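The share of Arg1-high cells among day-3 C1q macrophages, 9.82%, was 10.9% after thinning, 13.6% in male cells, 11.6% without cycling cells, 4.25% with an Arg1 cut-off of 10 per 10000 and 30.3% with any Arg1 UMI. The counts of genes at least 2-fold higher and lower, 18 and 16, were 35 and 73 in male cells alone, 35 and 54 with the Arg1 cut-off at 10 per 10000, 44 and 61 at 10 CPM or more and 701 and 503 with no minimum level, where most genes have few UMIs, and 9 genes were lower in female cells alone. Of the 15 genes with the highest ratios, 15 stayed above 1 in each of 15 alternatives (12 planned, 3 added after seeing the data) and 8 stayed at least 2-fold higher. Of the 15 lowest, 14 stayed below 1 and 5 at least 2-fold lower wherever both groups held UMIs, which was in all 15 alternatives for 11 of them. Of 108 named genes, 23 were on the other side of 1 in some alternative, 7 of them among the 61 that were at least 1.5-fold higher or lower. The medians of 6 of 20 lists changed sign, and for 5 of them the main median was under 1.5-fold. Of these, the classical activation list went from a median log2 ratio of 0.0816 to -0.846 in male cells. The log2 ratio of H2-Ab1 was 0.74 without MHC class II high cells, and the log2 ratio of Il1b was -1.12 with C1q at 20 per 10000 or more. In male cells the log2 ratio of Fabp4 was -0.00386, the log2 ratio of Klf4 was -0.033, the log2 ratio of Gdf15 was 0.48 and the log2 ratio of Inhba was 1.17. Without cycling cells the log2 ratio of Hmmr was 0.94. The median log2 ratio of mitotic genes was 0.0106 without cycling cells, where the cells that hold these UMIs are removed. For the genes the cause was not tested. No paired analysis was possible because each time point has 1 library. Genes under 10 CPM in both groups were left out of the gene lists as too shallow to compare at this depth. Arg2 was also below that level and is given because it was set whatever its value.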

Other observations

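A few single genes of other lists also differed. Ctsl, which encodes the lysosomal protease cathepsin L, stood at 4321 CPM in Arg1-high and 2319 CPM in Arg1-zero macrophages (1.86, 1.83 to 1.90), at 3270 CPM in cells with some Arg1 and at 1110 CPM in uninjured C1q macrophages. The lysosome list as a whole had a median log2 ratio of 0.10. Of its 25 measured genes 2 were at least 1.5-fold higher and 0 lower, against 1.84% and 3.88% of all genes. The inhibitory Fc receptor gene Fcgr2b stood at 268 against 169 CPM (1.58, 1.47 to 1.71) and the activating Fcgr4 at 26.6 against 16.4 CPM (1.62, 1.26 to 2.05), while Fcgr1 was near level at 62.2 and 70.8 CPM. Fth1, the ferritin heavy chain gene, made up 39174 CPM in Arg1-high and 29229 CPM in Arg1-zero cells (1.34, 1.33 to 1.35), and the iron exporter gene Slc40a1 was lower. Of 5 measured interferon-response genes 0 were past 1.5-fold in either direction.

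Vcan, which encodes the matrix proteoglycan versican and is high in monocytes, had a ratio of 2.00 (1.70 to 2.33), whereas the other monocyte genes past 1.5-fold, Ly6c2, Plac8, Hp and Ccr2, had ratios of 0.195, 0.279, 0.323 and 0.387. Of the Plac8 UMIs in Arg1-zero cells 42.5% came from 5 cells, and its ratio was 0.633 without likely doublets and 0.507 without cells high in neutrophil markers. Early response and dissociation genes had the highest list median, 0.41, with 1 of 14 measured members (Fosl1) at least 1.5-fold higher (1.84% of all genes). After thinning their median was 0.286, below the 0.383 of the wound matrix, growth factor and protease list. The part of cell handling in these values was not tested.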
